A study of Mus musculus with 14 samples.

Results

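The genes that make fatty acids, join them into triglyceride and coat the droplets that store it were followed through RNA sequencing of mouse liver with and without Abcb11, the bile salt export pump of the hepatocyte's canalicular membrane. The set held 38 genes, chosen by symbol for their function, out of 54532 rows of the count table. Each symbol matched 1 row, and all 38 were among the 17874 genes that passed the filter on low counts. Libraries came from tumour tissue in the livers of Abcb11-/- females (n = 3, "knockout tumours"), from liver outside tumours in Abcb11-/- females (n = 3, "knockout non-tumour livers"), from livers of wild-type females (n = 2), from livers of Abcb11-/- males (n = 3) and from livers of wild-type males (n = 3). All were C57BL/6J mice aged 52 weeks, the labels name no treatment, and they do not state which part of Abcb11 is deleted, whether male knockout livers held tumours, or whether a tumour library and the non-tumour library with its number share an animal. The wild-type female libraries are numbered 2 and 3; values below follow the library numbers within each group. The series' design text gives 3 mice per group, but nothing ties each library to an animal, so p-values measure the spread between these libraries, which may be technical.

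De novo lipogenesis turns acetyl-CoA into palmitate, which is then elongated and desaturated, and in liver it is known to be driven by insulin through Srebf1 (SREBP-1c) and by glucose through Mlxipl (ChREBP). Fatty acids are esterified to glycerol by the acyltransferases Gpam, Agpat2, Dgat1 and Dgat2, with the phosphatidate phosphatases Lpin1 and Lpin2 in between. The triglyceride is held in droplets whose surface carries perilipins (Plin) and CIDE proteins, and it is released by the lipase Pnpla2 (ATGL), which G0s2 inhibits. Many of these genes follow the daily feeding rhythm in mouse liver.

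Promoter sequences are shown for the 4 members past the threshold in males that had a RefSeq start (GRCm38.p6) within 50 bases of the deposited gene start, at most 10% of exon bases shared with another gene, and at most 30 window bases inside an annotated exon. They let a reader see upstream letters of genes that moved in opposite directions: Plin2 was lower and the other 3 were higher in knockout males. Each runs 5′ to 3′ on the gene's strand over the 250 bases before the start, and capitals mark CCAAT on either strand.
Plin2, chr4:86670060-86670309, minus strand: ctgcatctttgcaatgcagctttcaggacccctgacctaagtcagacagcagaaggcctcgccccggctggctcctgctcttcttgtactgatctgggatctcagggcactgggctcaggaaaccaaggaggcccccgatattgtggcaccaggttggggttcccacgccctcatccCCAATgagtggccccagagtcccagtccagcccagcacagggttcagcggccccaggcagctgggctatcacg
Srebf1, chr11:60222582-60222831, minus strand: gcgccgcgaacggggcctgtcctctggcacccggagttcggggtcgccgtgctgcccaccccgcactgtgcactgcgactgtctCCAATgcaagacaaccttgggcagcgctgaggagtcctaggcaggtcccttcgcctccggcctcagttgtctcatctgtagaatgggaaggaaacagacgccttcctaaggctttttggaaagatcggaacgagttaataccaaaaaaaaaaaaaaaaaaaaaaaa
Fasn, chr11:120824548-120824797, minus strand: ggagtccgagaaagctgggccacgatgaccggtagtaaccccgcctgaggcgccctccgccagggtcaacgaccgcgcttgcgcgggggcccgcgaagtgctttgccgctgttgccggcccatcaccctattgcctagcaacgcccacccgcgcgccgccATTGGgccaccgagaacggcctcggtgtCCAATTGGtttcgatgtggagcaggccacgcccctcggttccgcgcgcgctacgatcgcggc
Pnpla3, chr15:84167566-84167815, plus strand: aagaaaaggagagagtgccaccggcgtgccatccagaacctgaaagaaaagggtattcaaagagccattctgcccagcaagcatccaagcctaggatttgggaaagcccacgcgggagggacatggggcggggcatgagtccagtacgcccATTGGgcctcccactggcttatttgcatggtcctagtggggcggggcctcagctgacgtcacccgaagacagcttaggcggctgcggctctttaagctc
The first marked base lay 73 bases before the start in Plin2, 166 in Srebf1 and 99 in Pnpla3. Fasn held 3 matches, at 90, 62 and 59 bases, the last 2 of which overlap. The Srebf1 stretch precedes the deposited gene start. Counts per gene do not tell transcripts apart, so that start need not be the one of the SREBP-1c form. In the 300-base RefSeq windows (250 before the start and 50 after), which were given for 31 of the 38 members, CCAAT was present in 20 of 43 member windows (46.5%), against 37.4% of all 32851 windows. The E-box CACGTG was in 5 member windows (11.6%), against 7.15% of all windows. The sterol regulatory element, searched as TCACNCCAC, was in 1 (2.33%, that of Mlxipl), against 1.24% of all windows. Both strands were searched, and a match describes letters only. Scd1, Scd2, Elovl3, Fads1, Dgat1, Dgat2 and Cidea are named only.

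Library totals lay between 14745140 and 19480538 counts. Abcb11 averaged 25.2 ± 8.34 CPM (counts scaled to library depth with edgeR's TMM factors) in knockout tumours, 24.97 ± 9.61 in knockout non-tumour livers and 379 ± 154 in wild-type females, and 80.7 ± 21.04 in knockout males against 309 ± 12.3 in wild-type males (SD, n as above). The summed level of 7 hepatocyte markers was 44415 to 78402 CPM in knockout tumours, 43155 to 77600.5 in knockout non-tumour livers and 42866 to 44049 in wild-type females. It was 50199 to 64748 in knockout males and 23943 to 50556 in wild-type males. Every library thus held hepatocyte transcripts, with Alb making up most of each sum. The mean log2 CPM of the 7 was 11.2, 9.96 and 10.8 in knockout tumours. It was 10.9 to 11.4 in knockout non-tumour livers and 9.82 to 10.6 in wild-type males. In bulk liver, fewer cells of a type and less RNA per cell cannot be told apart.

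Groups also stood apart in their clock genes. A clock score, the mean log2 CPM of 8 evening genes (such as Dbp and Per2) minus that of 4 morning genes (such as Arntl), was 0.04, 2.61 and 4.26 in knockout tumours, -0.29, 3.12 and 4.86 in knockout non-tumour livers and 1.73 and 1.27 in wild-type females. It was 3.46, 2.70 and 3.15 in knockout males, against -1.85, -1.42 and -1.52 in wild-type males. The 2 male groups did not overlap, so genotype and clock state cannot be told apart between them, and within both female knockout groups the library numbered 1 was the lowest. The share of counts from mitochondrially encoded genes ran from 15.7% to 42.2% and overlapped between the male groups.

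**Figure D1:**
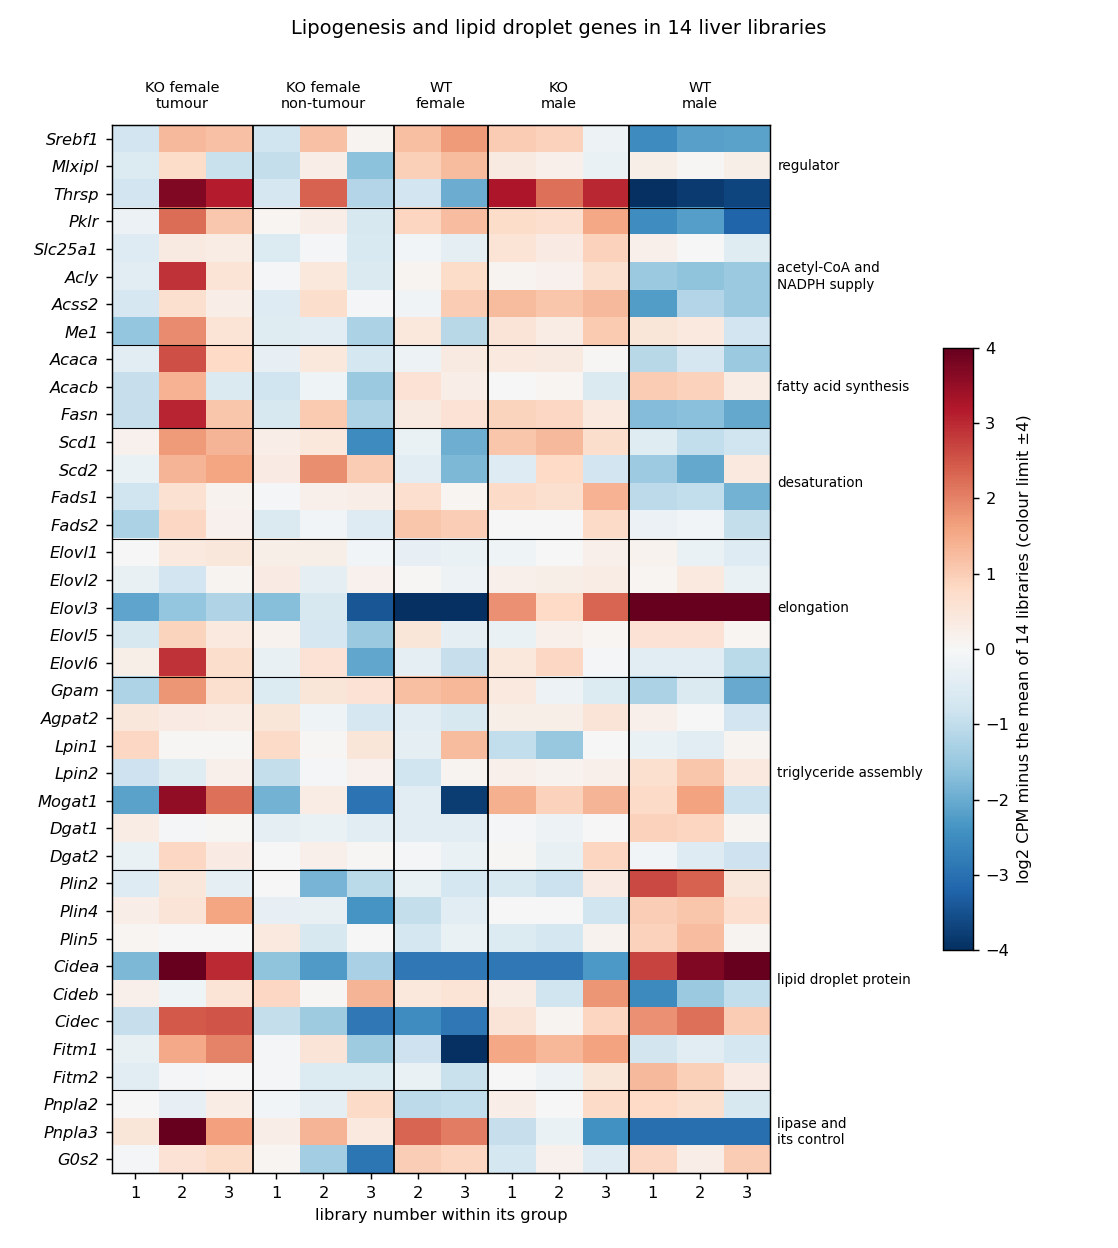
Colour shows log2 CPM of each of the 38 members (rows, grouped by role) minus its mean over the 14 libraries (columns, grouped by genotype, sex and tissue); the colour limit is ±4. Wild-type males are low across Srebf1, Thrsp, Pklr, Acly, Acss2 and Fasn and high for Elovl3, Cidea, Plin2, Plin4 and Plin5.

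Levels can be ranked between genes only per length, here as CPM per kilobase of gene length. Scd1, the desaturase that makes oleate, had the highest mean in knockout tumours (807 ± 376 CPM per kb), in knockout non-tumour livers (314 ± 219.8) and in knockout males (726 ± 148). G0s2 was the highest in both wild-type groups, with 405 ± 99.8 CPM per kb in wild-type males and 461 ± 26.4 in wild-type females. The next places in wild-type males were Plin2 (324 ± 194 CPM per kb) and Elovl3 (267 ± 80.7), whose ranges overlapped each other and that of G0s2. In wild-type females Elovl3 had 0.508 ± 0.0107 CPM per kb, the third lowest of the 38. Elovl3 had the lowest mean of the 38 in knockout tumours, at 3.42 ± 1.07 CPM per kb, Pnpla3 in wild-type males, with 0 counts, and Cidea in the other 3 groups.

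The first comparison asked what loss of Abcb11 does in males. Srebf1, Thrsp, the supply enzymes Pklr and Acss2, and Fasn were higher in knockout males, and 3 of 8 droplet protein genes were lower. At an adjusted p under 0.05 (edgeR quasi-likelihood F test, Benjamini-Hochberg over all 17874 genes), 8 of 38 members were higher and 5 were lower, where 14.3% of all tested genes were higher and 6.32% were lower (20.6% in either direction). The higher ones were the regulators Srebf1 and Thrsp, the supply enzymes Pklr and Acss2, Fasn, the desaturase Fads1, the droplet protein Cideb and the lipase Pnpla3. The lower ones were the elongase Elovl3, the acyltransferase Dgat1 and the droplet proteins Plin2, Plin5 and Cidea. The members' median log2 fold change was 0.49, against 0.11 over all tested genes, and 0.47 with the members at or near 0 counts placed at their bounds or, where they had none, left out.

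Srebf1, the transcription factor that drives fatty acid synthesis genes, had 180.0, 167 and 75.9 CPM in knockout males, against 15.2, 19.7 and 20.1 in wild-type males. Its log2 fold change was 2.94 ± 0.57 (SE, as in all that follow), with an adjusted p of 0.00333. Thrsp, a small nuclear protein that promotes lipogenesis, had 892, 442 and 773 CPM in knockout males, against 3.43, 6.58 and 7.37 in wild-type males (log2 fold change 6.92 ± 1.32, adjusted p = 0.00441). In both genes the lowest knockout library was far above the highest wild-type one. Mlxipl, the glucose-responsive factor, had 527, 467 and 338 CPM in knockout males and 483, 421 and 486 in wild-type males, so its groups overlapped, with a log2 difference of -0.06 ± 0.46 (adjusted p = 0.945).

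The genes that feed carbon and reducing power into the pathway were higher in part. Pklr, the liver pyruvate kinase, had 50.95, 49.6 and 91.1 CPM in knockout males, against 5.43, 6.66 and 3.23 in wild-type males (log2 fold change 3.65 ± 0.55, adjusted p = 0.000729). Acss2, which makes acetyl-CoA from acetate, had 162, 145 and 165 CPM in knockout males, against 14.04, 29.8 and 23.7 in wild-type males (log2 fold change 2.80 ± 0.42, adjusted p = 0.000545). Acly, which makes acetyl-CoA from citrate, had 54.9, 56.8 and 77.7 CPM against 17.98, 16.4 and 18.1 in wild-type males; the groups did not overlap, yet the test was missed (log2 fold change 1.85 ± 0.64, adjusted p = 0.0591). Of the other 2 supply genes, the citrate carrier Slc25a1 had 166 to 249.9 CPM in knockout males and 93.8 to 149.6 in wild-type males, and malic enzyme Me1 65.6 to 110.5 and 31.3 to 76.1 CPM, neither past the threshold. For Pklr, 22.0% of exon bases lie over the opposite-strand gene Hcn3, and as the sources used here do not state whether counting used strand, reads of both cannot be told apart.

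Of the enzymes that build the chain, Fasn (fatty acid synthase) passed the test. Fasn had 406, 388 and 283 CPM in knockout males, against 65.1, 67.5 and 52.9 in wild-type males (log2 fold change 2.54 ± 0.79, adjusted p = 0.0383). Acaca, the carboxylase that makes malonyl-CoA for synthesis, had 67.99, 67.7 and 53.7 CPM in knockout males and 24.2, 32.99 and 18.4 in wild-type males, again without overlap and without passing (log2 fold change 1.33 ± 0.58, adjusted p = 0.124). Acacb, the mitochondrial form known for restraining fatty acid oxidation, lay the other way, ranging over 31.1 to 49.6 CPM in knockout males, against 56.5 to 93.9 in wild-type males (log2 fold change -0.92 ± 0.51, adjusted p = 0.229).

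Among desaturases, Fads1, the delta-5 enzyme of polyunsaturated fatty acids, had 251, 231 and 389 CPM in knockout males, against 72.1, 73.9 and 39.9 in wild-type males (log2 fold change 2.23 ± 0.37, adjusted p = 0.000923). Fads2, the delta-6 enzyme, had 46.6, 47.4 and 80.6 CPM and 40.04, 43.9 and 24.2 CPM in the same groups (log2 fold change 0.69 ± 0.41, adjusted p = 0.245). Scd1 had 3651, 4146 and 2734 CPM in knockout males, against 1199.7, 858 and 971 in wild-type males, groups that stood clear of each other with a test just missed (log2 fold change 1.80 ± 0.62, adjusted p = 0.0532). Scd2, which belongs with Scd1 to a family of similar copies whose reads the counting could split, had 5.26 to 15.8 CPM in knockout males and 2.08 to 11.9 in wild-type males. Among elongases the largest difference went down: Elovl3, the elongase of saturated and monounsaturated very long chains, had 54.4, 26.8 and 76.7 CPM in knockout males, against 429, 503 and 267 in wild-type males (log2 fold change -2.92 ± 0.57, adjusted p = 0.00339). Elovl6, which takes palmitate to stearate, had 75.7, 99.1 and 54.8 CPM in knockout males and 42.4, 40.9 and 26.5 in wild-type males (log2 fold change 1.06 ± 0.70, adjusted p = 0.305). Elovl1, Elovl2 and Elovl5 had log2 fold changes of 0.21, 0.16 and -0.40, none past the threshold.

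Of the 7 genes of triglyceride assembly 1 passed. Dgat1, which adds the last acyl chain, had 36.8, 32.7 and 37.9 CPM in knockout males, against 70.96, 67.99 and 41.1 in wild-type males (log2 fold change -0.74 ± 0.21, adjusted p = 0.0215). Dgat2, the other enzyme of that step, had 212, 169 and 372 CPM and 189, 144 and 116 CPM in the same groups (log2 fold change 0.75 ± 0.33, adjusted p = 0.119). Gpam, the mitochondrial enzyme of the first acylation, had 29.5, 19.7 and 15.4 CPM in knockout males and 9.25, 15.03 and 5.50 in wild-type males (log2 fold change 1.12 ± 0.60, adjusted p = 0.209). Agpat2, Lpin1, Lpin2 and Mogat1 had log2 fold changes between -0.55 and 0.47, with no adjusted p under the threshold.

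The droplet protein genes went mostly the other way: 3 of 8 were lower and 1 was higher, with a median log2 fold change of -1.15. Plin2, the main perilipin of hepatocyte droplets, had 176, 147 and 337 CPM in knockout males, against 1677, 1362 and 370.5 in wild-type males (log2 fold change -2.37 ± 0.57, adjusted p = 0.00991); wild-type library 3 lay close to knockout library 3. Plin5, the perilipin that ties droplets to mitochondria, had 35.5, 31.4 and 56.4 CPM in knockout males and 97.7, 122 and 55.1 in wild-type males, with overlap in the libraries numbered 3 (log2 fold change -1.16 ± 0.32, adjusted p = 0.0182). Cidea, which fuses droplets and is scarce in lean liver, was counted 0, 0 and 1 times in knockout males and 82, 151 and 840 times in wild-type males (adjusted p = 0.0149), a ratio of 976 for wild-type over knockout males with a 95% counting interval of 175 to 38599.5.

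The remaining droplet genes were split. Cideb, the CIDE protein known for loading lipid onto lipoproteins, had 9.07, 4.17 and 25.2 CPM in knockout males, against 1.16, 2.58 and 3.68 in wild-type males (log2 fold change 2.37 ± 0.58, adjusted p = 0.0112); 76.3% of its exon bases lie over the opposite-strand gene Nop9, so this call is uncertain. Plin4 had 115, 113 and 65.1 CPM in knockout males and 222, 241 and 181 in wild-type males (log2 fold change -1.14 ± 0.47, adjusted p = 0.0978). Cidec, the CIDE protein of large droplets, had 47.2, 35.7 and 58.9 CPM and 116, 149.5 and 65.998 CPM in the same groups (log2 fold change -1.23 ± 0.69, adjusted p = 0.236). Fitm2, which helps droplets bud from the endoplasmic reticulum, had 30.9, 27.6 and 43.9 CPM in knockout males and 77.4, 61.8 and 39.3 in wild-type males (log2 fold change -0.80 ± 0.27, adjusted p = 0.051), while its relative Fitm1 had 125 to 154 and 30.3 to 36.9 CPM (log2 fold change 2.12 ± 0.73, adjusted p = 0.0597). In Plin4 and Cidec no knockout library reached a wild-type one, but neither passed. Fitm1 shares 11.2% of its exon bases with an opposite-strand gene and Mogat1 12.8%.

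Of the 3 genes of lipolysis 1 passed. Pnpla2, the first lipase of stored triglyceride, had 129.6, 106 and 184 CPM in knockout males and 189, 167 and 69.1 in wild-type males, with a log2 difference of -0.02 ± 0.37 (adjusted p = 0.985). G0s2 had 130.1, 241 and 149.9 CPM in knockout males and 377, 256 and 425 in wild-type males (log2 fold change -1.02 ± 0.53, adjusted p = 0.188). Pnpla3, a lipase relative under Srebf1 control in mouse liver, was counted 5, 9 and 1 times in knockout males and 0, 0 and 0 times in wild-type males (adjusted p = 0.0433); no fold is given, because 1 knockout library had under 3 counts, the limit that a count of 0 allows.

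**Figure D2:**
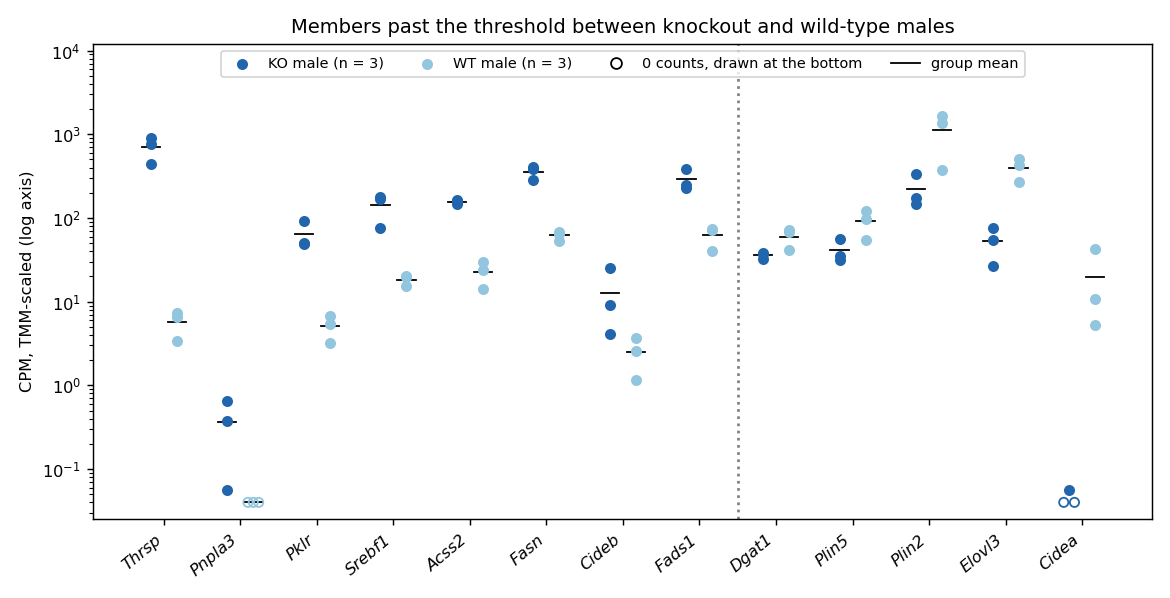
CPM (log axis) of the 13 members past the threshold between knockout and wild-type males; points are libraries, lines are group means, open points are 0 counts, and the dotted line parts members higher from members lower in knockout males. All but Plin5 have groups that do not overlap, which the choice of members that passed between these same groups favours. The share over all tested genes is not given here.

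Among 38 other genes of the pathway, 36 of them tested, 10 were higher and 5 lower in knockout males. The 3 with the smallest p, all higher, were Acsl3, an acyl-CoA synthetase of droplets, Insig1, the brake on SREBP processing, and Mogat2, a monoacylglycerol acyltransferase, with log2 fold changes of 1.82, 3.56 and 5.97. The 8 adipocyte markers summed to 35.8 to 73.01 CPM in knockout males and 54.7 to 78.8 in wild-type males. Of the 8, Lep was at 0 in all 14 libraries, Adipoq in 13, and Plin1 and Retn had at most 10 and 15 counts. The other 4 were counted in males: Lipe 276, 204 and 266 times in knockout males and 727, 453 and 620 in wild-type males, Cfd 277, 427 and 123 against 66, 202 and 124, Fabp4 148, 357 and 237 against 255, 251 and 183, and Adrb3 32, 11 and 7 against 165, 187 and 157. The 5 endothelial markers summed to 70.8 to 94.02 CPM in knockout males and 116 to 188 in wild-type males, without overlap, while the cholangiocyte, macrophage and stellate sums overlapped. Of the endothelial markers, Pecam1, Stab2 and Clec4g were lower without overlap, while Kdr and Vwf overlapped. The part of these cell markers in the male result was not tested. The mean log2 CPM of 9 fasting-response genes such as Pck1 was 6.78 to 7.11 in knockout males and 6.81 to 7.24 in wild-type males, which overlapped. With each library left out in turn, 7 of the 13 calls were kept throughout: Srebf1, Thrsp, Pklr, Acss2, Fads1, Elovl3 and Plin2. Cideb was lost without knockout male 3, Cidea without any 1 knockout male, Dgat1 without knockout male 1 or 2 or wild-type male 1, Plin5 without knockout male 1 or 2 or wild-type male 2, and Fasn and Pnpla3 each without 9 of the 14 libraries, every wild-type male among them. Without knockout male 1 or without knockout male 2, 8 members passed, and the shares of all tested genes in those fits are not given here. With the clock score as a covariate in edgeR, 0 members passed, while 372 genes did, which was 2.08% of those tested; 6 members were higher and 3 lower at an unadjusted p under 0.05, as were 14.9% of all genes in either direction. Under it the log2 fold change of Srebf1 was 1.31 ± 0.72 (adjusted p = 0.44), that of Pklr 3.45 ± 0.87 (adjusted p = 0.0675) and that of Elovl3 -3.17 ± 0.99 (adjusted p = 0.139).

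**Figure D3:**
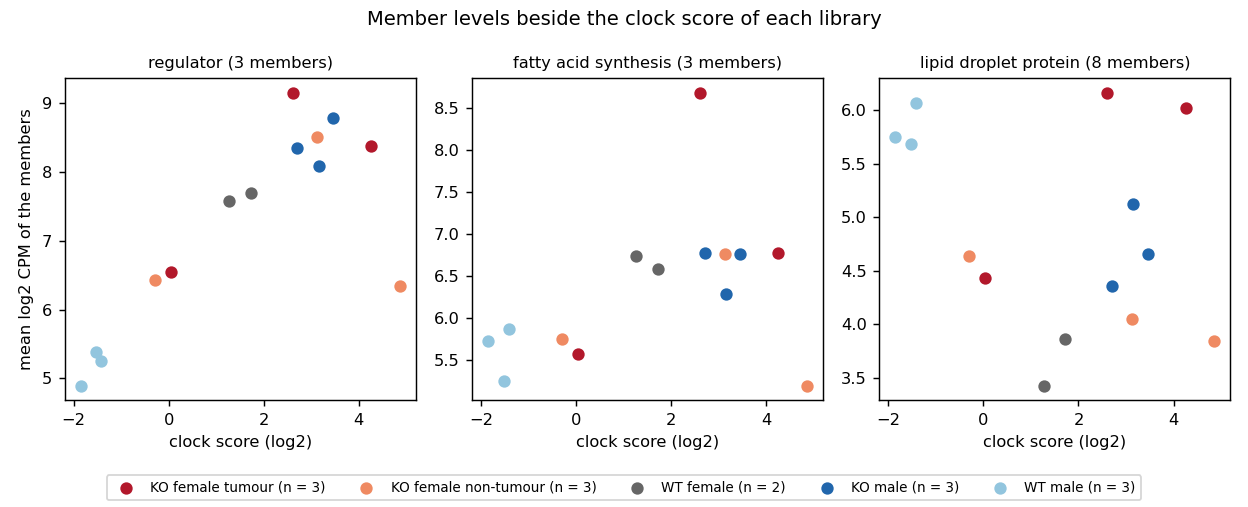
Mean log2 CPM of the regulators, the fatty acid synthesis genes and the droplet proteins in each of the 14 libraries, against the clock score of the same library. Wild-type males sit together at the lowest scores, with the lowest regulator levels, and have droplet protein levels above those of knockout males.

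In females, the corresponding comparison set knockout non-tumour livers against wild-type livers. No member passed the threshold, where 4.16% of all tested genes did, 1.9% higher and 2.26% lower. At an unadjusted p under 0.05 in the same edgeR test, 3 members were higher (Elovl3, Pnpla2 and Scd2, with log2 fold changes of 2.76, 1.19 and 2.22) and 3 lower (Fads2, G0s2 and Mlxipl, with -1.43, -1.84 and -1.67), against 10.4% and 10.9% of all genes (21.2% in either direction). DESeq2 called all 6 of these and limma-voom Fads2, Mlxipl and Pnpla2. Leaving out 1 library brought 1 or 2 members past the threshold: Fads2 without tumour 1, G0s2 without non-tumour liver 1, Mlxipl without non-tumour liver 2, Elovl3 without non-tumour liver 3, and Elovl3 and Pnpla2 without wild-type male 3. The shares of all tested genes in these other fits are not given here. In the main fit the members' median log2 fold change was -0.01, against -0.000161 over all genes, and -0.08 with Cidea, at 0 counts in wild-type females, left out. The knockout non-tumour livers also had higher sums of other cells' markers. The 6 cholangiocyte markers summed to 418 to 559 CPM in them and 133 to 277 CPM in wild-type females. Spp1 made up most of each of these sums. The 6 macrophage markers summed to 141 to 400.3 and 97.8 to 99.5 CPM in the same groups, and of these only Clec4f overlapped. The part of these cell markers in the female result was not tested.

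Tumour, non-tumour and wild-type female values are given together, since tumours were set against both. Srebf1 had 51.5, 217 and 197 CPM in knockout tumours, 50.3, 199.5 and 96.04 in knockout non-tumour livers and 203 and 288 in wild-type females. Thrsp had 56.1, 1246 and 844 CPM in knockout tumours, 59.6, 487 and 42.1 in knockout non-tumour livers and 56.3 and 24.1 in wild-type females. Mlxipl had 282, 674 and 219, 211, 490.2 and 132 and 784 and 988 CPM in the same 3 groups. Both knockout groups lay below both wild-type libraries only for Mlxipl among these regulators, and for Srebf1 and Thrsp the knockout libraries numbered 1 were lowest or close to it.

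The supply genes follow. Pklr had 26.2, 145 and 65.2 CPM in knockout tumours, 32.6, 37.4 and 19.8 in knockout non-tumour livers and 56.4 and 72.95 in wild-type females. Acly had 37.3, 376 and 74.4 CPM in knockout tumours, 48.2, 67.05 and 33.9 in knockout non-tumour livers and 54.1 and 83.5 in wild-type females. For Acss2 the values were 41.9, 105 and 81.02 CPM in knockout tumours, 47.3, 108 and 65.2 in knockout non-tumour livers and 61.1 and 135 in wild-type females. Tumour 2 was the highest library of the series for Pklr and Acly and not for Acss2.

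In the synthesis and desaturation enzymes the tumours differed widely among themselves. Fasn reached 115, 1812 and 468 CPM in knockout tumours, with 139, 444 and 91.8 in knockout non-tumour livers and 275 and 324 in wild-type females. Acaca reached 38.1, 312 and 90.3 CPM in knockout tumours, with 41.7, 70.4 and 31.8 in knockout non-tumour livers and 45.5 and 66.5 in wild-type females. Scd1 reached 1906, 5469 and 4338 CPM in knockout tumours, with 2010.1, 2242 and 296 in knockout non-tumour livers and 1394 and 436 in wild-type females. Tumour 2 was the highest and tumour 1 the lowest of the 3 tumours in each of these genes. Fads1 had 85.7, 227 and 165 CPM in knockout tumours, 139, 171 and 177 in knockout non-tumour livers and 233 and 156 in wild-type females. Fads2 had 19.5, 84.9 and 53.2, 31.4, 44.3 and 32.9 and 102 and 93.5 CPM in the same groups, so that all 6 knockout libraries lay below both wild-type ones.

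Among elongation and assembly genes, Elovl3 was scarce, at 3.46, 5.21 and 6.64 CPM in knockout tumours, 4.56, 9.79 and 1.31 in knockout non-tumour livers and 0.748 and 0.771 in wild-type females. Elovl6 had 66.2, 416 and 90.9 CPM in knockout tumours, 46.3, 84.6 and 13.2 in knockout non-tumour livers and 43.97 and 29.8 in wild-type females. Gpam had 9.46, 76.1 and 35.5 CPM in knockout tumours, 15.3, 31.4 and 33.5 in knockout non-tumour livers and 52.4 and 56.95 in wild-type females. Both wild-type females were under every knockout library for Elovl3. Dgat1 had 46.5, 35.99 and 39.1 CPM in knockout tumours, 29.4, 31.4 and 27.6 in knockout non-tumour livers and 27.6 and 28.3 in wild-type females. Dgat2 had 172, 362 and 259, 209, 235 and 213 and 195 and 173 CPM in the same groups. The 3 tumours were above all other female libraries for Dgat1 and not for Dgat2.

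Of the droplet genes, Plin2 had 187, 366 and 210.1 CPM in knockout tumours, 267, 72.98 and 127 in knockout non-tumour livers and 224 and 165 in wild-type females. Plin4 had 136, 162 and 338 CPM in knockout tumours, 89.6, 90.96 and 21.7 in knockout non-tumour livers and 57.6 and 84.9 in wild-type females. Plin5 had 54.6, 50.9 and 52.02, 67.1, 33.1 and 52.04 and 31.9 and 42.6 CPM in the same groups. Of these perilipins only Plin4 had all 3 tumours above every other female library. Cidea was counted 2, 903 and 128 times in knockout tumours, 3, 1 and 5 times in knockout non-tumour livers and 0 and 0 times in wild-type females. Cidec had 17.2, 180.0 and 189 CPM in knockout tumours, 16.999, 12.1 and 4.43 in knockout non-tumour livers and 5.74 and 4.38 in wild-type females. Tumours 2 and 3 stood far above the rest for both genes, and tumour 1 lay with the non-tumour livers. Cideb had 8.59, 6.50 and 10.8, 13.3, 7.60 and 19.2 and 9.85 and 10.9 CPM in the same groups, and Fitm2 23.2, 29.9 and 31.6, 29.8, 21.5 and 21.7 and 26.2 and 16.9 CPM, with overlap in both.

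For lipolysis, Pnpla2 had 108, 85.3 and 133 CPM in knockout tumours, 99.3, 81.6 and 182 in knockout non-tumour livers and 52.2 and 54.3 in wild-type females, so that both wild-type libraries were below every knockout one. G0s2 had 206, 315 and 352 CPM in knockout tumours, 225, 81.2 and 28.8 in knockout non-tumour livers and 418 and 385 in wild-type females, where the wild-type libraries were above every knockout one. Pnpla3 had 1.17, 16.5 and 2.79 CPM in knockout tumours, 0.997, 2.25 and 1.09 in knockout non-tumour livers and 4.49 and 3.71 in wild-type females. Of the members not given library by library, Scd2 had 7.48 to 27.02 CPM in knockout tumours, 11.2 to 32.9 in knockout non-tumour livers and 2.51 to 6.49 in wild-type females, which lay below both. Acacb had 24.3 to 121, 16.6 to 41.2 and 55.7 to 69.9 CPM, Fitm1 41.1 to 198, 18.8 to 72.5 and 2.99 to 28.001 CPM, and Mogat1 0.247 to 18.6, 0.0904 to 1.84 and 0 to 1.06 CPM in the same groups. Slc25a1, Me1, Elovl1, Elovl2, Elovl5, Agpat2, Lpin1 and Lpin2 had no call in any comparison.

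Set against non-tumour liver of knockout females, tumours had no member past the threshold in edgeR's quasi-likelihood test, and 0% of all tested genes passed. At an unadjusted p under 0.05, 14 members were higher and 0 lower, against 3.18% and 3.63% of all genes (6.81% in either direction). They were Acly, Me1 and Pklr among supply genes, Acaca and Fasn, Scd1, Elovl6, Dgat1 and Mogat1, the droplet genes Cidea, Cidec and Plin4, and Pnpla3 and G0s2. DESeq2 called Cidea and Cidec, and limma-voom called no member. The median log2 fold change was 0.57, with 30 members above 0 and 8 below, against -0.01 over all genes. The largest log2 fold changes were those of Cidea (6.70 ± 1.74), Mogat1, an acyltransferase of monoacylglycerol (3.57 ± 1.40), and Cidec (3.53 ± 0.76), with adjusted p of 0.665, 0.673 and 0.665; that of Cidea rests on 2 tumours.

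The difference rested on the libraries numbered 2 and 3. Tumour minus non-tumour log2 CPM averaged -0.20, 1.23 and 1.52 over the 38 members for numbers 1, 2 and 3, and 11, 31 and 32 members were higher in the tumour. Fasn differed by -0.27, 2.03 and 2.35, Scd1 by -0.08, 1.29 and 3.87 and Cidec by 0.02, 3.88 and 5.38 for numbers 1, 2 and 3. Of the 38, 8 members were higher in the tumour for all 3 numbers: Srebf1, Mlxipl, Slc25a1, Elovl6, Dgat1, Plin4, Cidec and Pnpla3. Cideb and Elovl2 were lower for all 3. The shares of all tested genes for these counts by number are not given here, so the counts describe the members only. The clock scores of same-numbered tumour and non-tumour libraries, given above, lay close to each other. Adipocyte markers summed to 80.1 to 212 CPM in knockout tumours and 26.2 to 54.6 in knockout non-tumour livers, 6 cholangiocyte markers to 659.9 to 1349 and 418 to 559 CPM, and 5 endothelial markers to 105 to 134 and 82.4 to 96.4 CPM, none of which overlapped. The 6 stellate markers summed to 137 to 474 CPM in knockout tumours, highest in tumour 2, and 97.7 to 171 in knockout non-tumour livers, and the macrophage sums overlapped. Fabp4 had 960, 2551 and 3854 counts in knockout tumours and 802, 228 and 483 in knockout non-tumour livers, and made up most of the adipocyte sum in tumours. Spp1 had 609, 766 and 1269 CPM in knockout tumours and 488, 354 and 464 in knockout non-tumour livers. It made up most of each cholangiocyte sum, while Krt7, Krt19, Epcam, Sox9 and Cftr each overlapped between the 2 groups. Of the endothelial markers only Vwf did not overlap. The part of these markers in the result was not tested. Without tumour 1, Cidec (log2 fold change 4.04 ± 0.47, adjusted p = 0.00578) and Cidea (adjusted p = 0.0327) passed, and without both female knockout libraries numbered 1 Cidec did (4.49 ± 0.52, adjusted p = 0.0107).

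**Figure D4:**
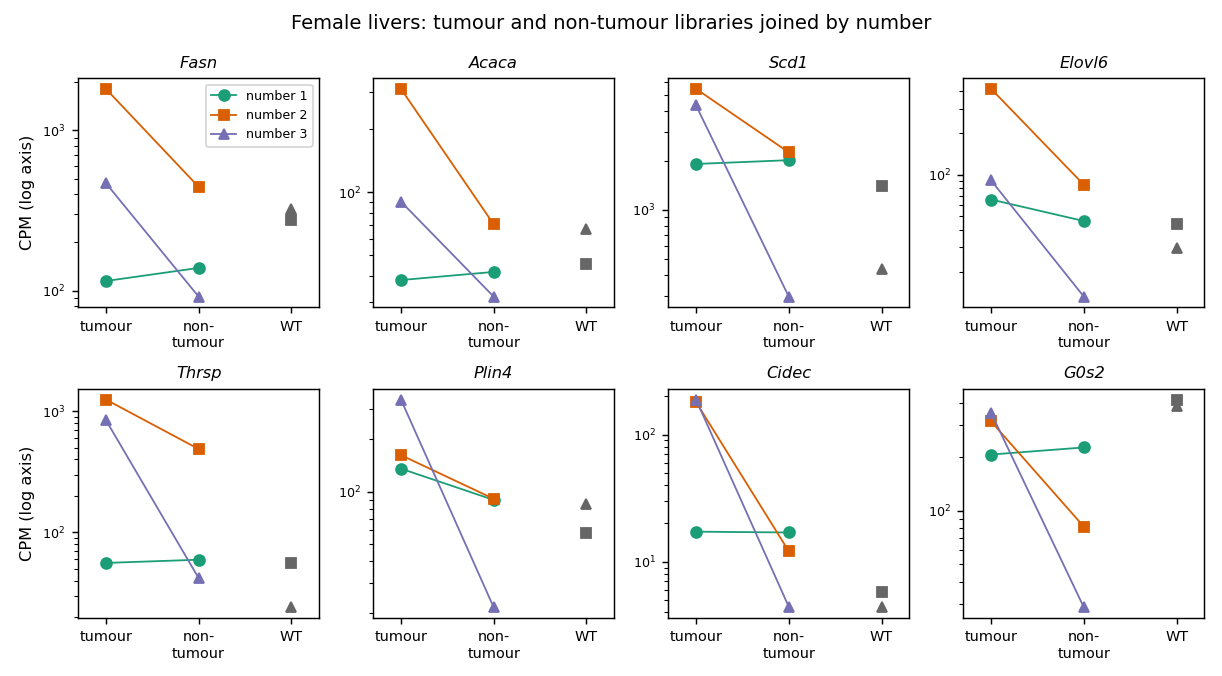
CPM (log axis) of 8 members in female libraries, with knockout tumour and knockout non-tumour libraries of the same number joined and wild-type libraries in grey. For numbers 2 and 3 the tumour lies above the non-tumour liver in these 8 panels, which held for 28 of the 38 members. The share over all tested genes is not given here. For number 1 the line is close to flat except for Plin4 and Elovl6.

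Against wild-type females, tumours had 3 members higher and 0 lower, where 3.94% of all tested genes were higher and 5.67% lower (9.61% in either direction). Cidec passed (log2 fold change 4.67 ± 0.96, adjusted p = 0.0133), as did Elovl3 (log2 fold change 2.74 ± 0.75, adjusted p = 0.0372), and Cidea with 2, 903 and 128 counts in knockout tumours against 0 and 0 in wild-type females (adjusted p = 0.0488). No bound is given for Cidea, because tumour 1 was under 3 counts. The median log2 fold change of the members was 0.53, against 0.03 over all genes. The 2 comparisons of tumours share the tumour libraries, and both female knockout groups share the wild-type libraries. None of the 3 calls was kept with each library left out in turn: Cidec was lost without wild-type female 2 or 3, Elovl3 without tumour 2 or 3, wild-type female 2 or 3, or knockout male 1, and Cidea in 11 of the 14. With the replicate number as a block Elovl3 also missed the threshold (log2 fold change 2.78, adjusted p = 0.058 in edgeR, with a range of 8.36e-09 to 0.294 over its 26 alternatives). Knockout tumours had higher sums of cholangiocyte (659.9 to 1349 against 133 to 277 CPM) and macrophage markers (171 to 317 against 97.8 to 99.5) than wild-type females. So did stellate (137 to 474 against 104 to 113 CPM) and adipocyte markers (80.1 to 212 against 43.2 to 64.1), all without overlap. Of the stellate markers, Col1a1, Col3a1 and Pdgfrb did not overlap, while Des, Lrat and Reln did. Of the macrophage markers, Clec4f and Vsig4 overlapped. Spp1 made up most of each cholangiocyte sum. Fabp4 made up most of the adipocyte sum in tumours, at 59.4, 122 and 195 CPM against 3.99 and 4.96. Cfd was also higher, while Lipe and Adrb3 were lower in tumours. Lipe had 17.2, 11.3 and 13.2 CPM against 17.96 and 21.7, and Adrb3 2.84, 0.669 and 0.811 against 21.1 and 37.3. The part of these cell markers in the tumour result was not tested. Without tumour 1, 6 members passed, and without non-tumour liver 3, 5. With tumour 2, tumour 3 or knockout male 1 left out, 1 passed. The shares of all tested genes in these refits are not given here, so the counts show only how the calls moved. Among other pathway genes 5 were higher and 2 lower, with the smallest p for Pparg, a driver of fat storage, Acsl1, an acyl-CoA synthetase, and Pgd, an NADPH-forming enzyme (log2 fold changes 1.81, -1.53 and 1.47). In the non-tumour comparison with wild-type females 1 of the 36 was higher (Pparg, log2 fold change 1.63) and 1 lower (Acsl1, -1.69); next by p came Lipe (-0.84), which did not pass. In tumours against non-tumour livers none of the 36 passed, and Pgd, Mgll and Acsl4 had the smallest p, with log2 fold changes of 0.92, 1.23 and -0.80.

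Whether the knockout effect differed between the sexes was tested as the difference between the 2 log2 fold changes, females (non-tumour over wild-type) minus males. Of the 38 members 2 were higher and 6 lower in this difference, where 2.2% of all tested genes were higher and 8.68% lower (10.9% in either direction). The lower ones were Srebf1 (log2 difference -4.04 ± 0.81, adjusted p = 0.0077), Pklr (log2 difference -4.76 ± 0.75, adjusted p = 0.00218), Acss2 (log2 difference -3.22 ± 0.59, adjusted p = 0.00389), Fads1 (log2 difference -2.49 ± 0.52, adjusted p = 0.00841), Fads2 (log2 difference -2.12 ± 0.60, adjusted p = 0.0369) and Pnpla3 (adjusted p = 0.0429). The higher ones were Elovl3 (log2 difference 5.68 ± 0.95, adjusted p = 0.003) and Plin5 (log2 difference 1.60 ± 0.48, adjusted p = 0.0435). The effect on Srebf1 was -1.09 ± 0.58 in females and 2.94 ± 0.57 in males, and that on Elovl3 2.76 ± 0.75 in females and -2.92 ± 0.57 in males. Fasn missed the threshold for this difference (log2 difference -2.95 ± 1.12, adjusted p = 0.108), as did Thrsp (log2 difference -4.63 ± 1.56, adjusted p = 0.0804). Both effects draw on groups whose clock scores differ, and the wild-type males, lowest in that score, enter the male effect. Calls for Pklr, Acss2, Fads1 and Elovl3 were kept with each library left out in turn, that of Srebf1 was lost without wild-type female 3, and those of Fads2, Pnpla3 and Plin5 were lost in 9, 9 and 10 of the 14. With the replicate number as a block, Fads2 (log2 difference -1.96, adjusted p = 0.0559 in edgeR, 9.27e-05 to 0.26 over its 26 alternatives) and Plin5 (log2 difference 1.56, adjusted p = 0.0749, 0.00129 to 0.195 over its 26) no longer passed. In all, 13 members passed without tumour 1, and 5 without any 1 of non-tumour livers 1 and 3, knockout male 1 and wild-type males 1 and 2. The shares of all tested genes in these refits are not given here, so the counts show only how the calls moved. Of the other pathway genes 0 were higher and 2 lower in this log2 difference, Acsl3 (-2.71) and Insig1 (-5.13), followed by Tecr (-1.27), which did not pass.

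**Figure D5:**
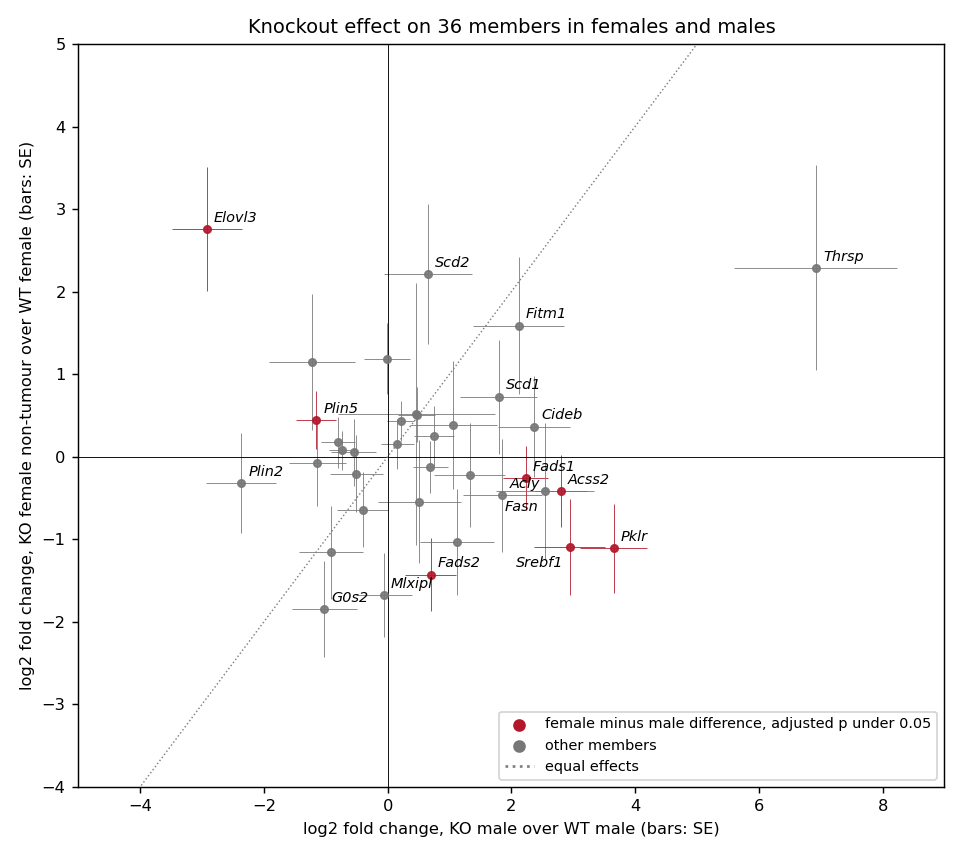
Log2 fold change of 36 members in knockout non-tumour over wild-type females (vertical axis) against that in knockout over wild-type males (horizontal axis), with SE bars; Cidea and Pnpla3 are left out because a group was at or near 0 counts. Srebf1, Pklr, Acss2 and Fads1, in red, are above 0 in males and below 0 in females, and Elovl3 the reverse.

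Wild-type livers alone differed between the sexes over much of the set. In wild-type males 9 of 38 members were higher and 8 lower than in wild-type females, where 7.03% of all tested genes were higher and 16.1% lower (23.1% in either direction). The higher ones were Elovl3, Dgat1, Pnpla2 and 6 of the 8 droplet genes (Plin2, Plin4, Plin5, Cidea, Cidec and Fitm2), and the lower ones Srebf1, Pklr, Acss2, Fads1, Fads2, Gpam, Cideb and Pnpla3. Elovl3, known as a male-biased liver gene in mice, averaged 399.6 ± 121 CPM in wild-type males and 0.760 ± 0.0160 in wild-type females (log2 fold change 9.02 ± 0.93, adjusted p = 5.93e-05). Cidec averaged 111 ± 42.05 CPM in wild-type males and 5.06 ± 0.956 in wild-type females (log2 fold change 4.45 ± 0.95, adjusted p = 0.00679). Plin2 averaged 1137 ± 682 CPM in wild-type males and 195 ± 41.5 in wild-type females (log2 fold change 2.54 ± 0.67, adjusted p = 0.0152). For each of these genes every male library was above both female ones. Cidea, with 82, 151 and 840 counts in wild-type males and 0 and 0 in wild-type females, was at least 28.4-fold higher (lowest male library against 3 counts per female library; adjusted p = 0.0246). The remaining higher members had log2 fold changes of 1.10 (Dgat1), 1.59 (Plin4), 1.30 (Plin5), 1.47 (Fitm2) and 1.41 (Pnpla2).

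On the lower side, Srebf1 averaged 18.3 ± 2.71 CPM in wild-type males and 246 ± 60.3 in wild-type females (log2 fold change -3.75 ± 0.62, adjusted p = 0.00118). Pklr averaged 5.11 ± 1.74 CPM in wild-type males and 64.7 ± 11.7 in wild-type females (log2 fold change -3.67 ± 0.57, adjusted p = 0.000868). Pnpla3, with 0, 0 and 0 counts in wild-type males and 72 and 77 in wild-type females, was at least 17.3-fold lower by the same floor (adjusted p = 0.00224). The others had log2 fold changes of -2.13 (Acss2), -1.65 (Fads1), -1.44 (Fads2), -2.47 (Gpam) and -2.06 (Cideb). Fasn (log2 fold change -2.28 ± 0.83, adjusted p = 0.066) and Acly (log2 fold change -1.97 ± 0.69, adjusted p = 0.056) did not pass. This comparison shares the wild-type males with the male knockout comparison, and the clock scores of wild-type males and wild-type females do not overlap, so sex and clock state cannot be told apart here. Endothelial markers summed to 116 to 188 CPM in wild-type males and 90.1 to 106 in wild-type females, without overlap. Of these, Pecam1 and Clec4g did not overlap, while Stab2, Kdr and Vwf did. Macrophage markers summed to 197 to 206 and 97.8 to 99.5 CPM in the same groups, also without overlap. Among them Csf1r and C1qa were higher without overlap, while Clec4f, Cd68, Adgre1 and Vsig4 overlapped. Cholangiocyte markers summed to 57.3 to 83.7 and 133 to 277 CPM, without overlap. Spp1 made up most of each cholangiocyte sum, at 52.1, 60.1 and 40.2 CPM in wild-type males and 248 and 112 in wild-type females. Epcam and Cftr were also lower in wild-type males, while Krt7, Krt19 and Sox9 overlapped. The part of these cell markers in this result was not tested. Calls kept with each library left out were those of Srebf1, Pklr, Elovl3 and Pnpla3; without wild-type female 2 or 3, 8 and 5 members passed. With the clock score as a covariate 6 members were higher and 3 lower. The shares of all tested genes in these refits are not given here, so their counts describe the members only. Other pathway genes had 5 higher and 3 lower, with Acsl3, Insig1 and Gpat4, a glycerol-phosphate acyltransferase, first by p (log2 fold changes -2.56, -4.37 and 1.56).

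Between knockout livers of both sexes, males against non-tumour females, 1 member was higher and 0 lower, where 0.207% of all tested genes were higher and 0.185% lower (0.392% in either direction). That member was Elovl3, with 54.4, 26.8 and 76.7 CPM in knockout males and 4.56, 9.79 and 1.31 in knockout non-tumour livers (log2 fold change 3.34 ± 0.59, adjusted p = 0.0266). Its call was lost without knockout male 1 or 3, non-tumour liver 1, or either wild-type female, and with the replicate number as a block; 2 members passed without tumour 1. For that refit the share of all tested genes is not given here. Srebf1 had 180.0, 167 and 75.9 CPM in knockout males and 50.3, 199.5 and 96.04 in knockout non-tumour livers, a log2 difference of 0.29 ± 0.53 (adjusted p = 0.965). Plin2 differed by 0.50 ± 0.54 (adjusted p = 0.91). None of the 36 other pathway genes tested passed, and Acsl1, Elovl7 and Mgll had the smallest p, with log2 fold changes of 1.02, -2.64 and 1.19.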

How the data were processed

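Liver RNA libraries from 14 samples in 5 groups were used. Per the submitters' processing notes, reads were mapped with HISAT2 2.0.5 to GRCm38 and counted per gene with featureCounts 1.5.0-p3; the strand setting is not given in the sources used here. The deposited table holds raw counts and FPKM for 54532 genes. The authors' FPKM imply library totals of 0.872 to 1.28 times the count sums and were not used for any result.

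Counts were fitted with edgeR 4.0.16 (R 4.3.3): TMM scaling, filterByExpr over the 5 groups, robust quasi-likelihood F tests, 1 fit of all 14 libraries, 2-sided, Benjamini-Hochberg over 17874 genes, threshold 0.05. SE is the log2 fold change over the square root of F. The series' design text names DESeq2 for the authors' own tests. Alternatives used limma 3.58.1 and DESeq2 1.42.0, other scalings and filters, the compared groups only, a replicate block, the clock score as a covariate, and each library left out. Floors are 3 counts per library and intervals 95%, for counting error only. The fit was also run on simulated counts with changes of known size. Those counts held no clock difference and no shared deviation between libraries, so such effects were not tested.

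The members and lists were chosen with earlier results of these data known. Library values are given for each member past the threshold in any comparison and for 17 fixed members, and of the other pathway genes the 3 with the smallest p are named. Tumour libraries deviated together with the non-tumour library of their number, with r = 0.486, 0.431 and 0.299 for numbers 1, 2 and 3. These values run across 7740 genes, which are not independent replicates. Between tumour and non-tumour libraries of different numbers, r ran from -0.416 to 0.0641. Knockout males share no animal with females, yet r was 0.433 between knockout male 1 and non-tumour liver 2. It was 0.437 between knockout male 3 and non-tumour liver 3. These values therefore cannot tell whether same-numbered tumour and non-tumour libraries share an animal, and the labels do not say. Promoters come from RefSeq (GRCm38.p6).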

Additional observations from a re-analysis of the deposited data

Results flagged for a closer look

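For 8 members a direct test of the knockout effect passed an adjusted p under 0.05 in edgeR, as did 10.9% of all tested genes. It took the log2 fold change in females (non-tumour over wild-type) minus that in males. The difference was below 0 for Srebf1 (-4.04), Pklr (-4.76), Acss2 (-3.22), Fads1 (-2.49), Fads2 (-2.12) and Pnpla3 (-7.16, with 0 counts in wild-type males, so its size depends on the prior count). It was above 0 for Elovl3 (5.68) and Plin5 (1.60). With the clock score as a covariate, 1 member was higher (Elovl3) and 1 lower (Pklr), and the other 6 calls were lost. Calls for Srebf1, Fads2, Pnpla3 and Plin5 were kept in 13, 5, 5 and 4 of 14 fits that each left out 1 library. Wild-type males, whose clock scores overlapped no other group, enter this difference, so clock state cannot be told apart from it.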

How the results depend on the processing

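No member past the threshold changed direction under any alternative run. Among members without a call in males, the clock score covariate turned the log2 fold change of Gpam to -0.43, G0s2 to 0.33, Elovl5 to 0.11, Fads2 to -0.02, Lpin1 to 0.08, Mlxipl to 0.00189, Mogat1 to -1.96 and Scd2 to -0.65. Over all alternatives, the number of members without a call whose sign changed was 12 of 38 for non-tumour livers against wild-type females, 13 of 38 for tumours against non-tumour livers, 11 of 35 for tumours against wild-type females, 11 of 25 in males, 8 of 21 between wild types, 6 of 37 for knockout males against non-tumour livers and 7 of 30 in the sex difference; 0 of these passed the threshold with the changed sign. The members' median, near 0 in both, ran from -0.17 to 0.12 over the alternatives for non-tumour livers against wild-type females (-0.01) and from -0.05 to 0.36 between wild types (0.15). Counts of members past the threshold moved as follows, and the cause was not tested. For most of these settings the share of all genes that passed is not given beside the count. The counts therefore show how the calls moved and are not read as results about the members. With no filter on low counts, 14 members passed between non-tumour livers and wild-type females, 14 between tumours and non-tumour livers, 15 between tumours and wild-type females, 24 between knockout and wild-type males, 10 between knockout males and non-tumour livers and 19 in the sex difference of the effect. Non-tumour livers against wild-type females (0) gave 1 member with upper-quartile scaling, 1 with a filter of 1 CPM in 3 libraries, 1 with the compared groups only, 6 with DESeq2, 3 with limma-voom, 1 without both female knockout libraries numbered 1, with or without the replicate block, and 2 without both numbered 2, an alternative chosen after seeing the data. Tumours against non-tumour livers (0) gave 2 with DESeq2 and 1 without both numbered 1, with or without the block; under the replicate block alone 1 gene and no member passed. Tumours against wild-type females (3) gave 9 with DESeq2, 9 with limma-voom and 6 without both numbered 1, with or without the block. Knockout males against non-tumour livers (1) gave 3 with DESeq2, 2 with limma-voom and 0 with the compared groups only, with the replicate block, or with the block and without both numbered 1. The sex difference (8) gave 14 with the compared groups only and 13 without both numbered 2. With the clock score as a covariate, 0 members passed between knockout and wild-type males (13), 9 between wild-type males and wild-type females (17) and 2 in the sex difference. The replicate block moved no other count by over 1.5 times; between wild types it ended the calls of Fads2 and Plin4. With each library left out, counts ran from 8 to 18 in males, 0 to 2 for non-tumour livers against wild-type females, 0 to 2 for tumours against non-tumour livers, 0 to 6 for tumours against wild-type females, 0 to 2 for knockout males against non-tumour livers, 5 to 20 between wild types and 4 to 13 for the sex difference. Leaving out 1 of the 2 wild-type females assumes that the other varies like the other groups. At 14745140 counts or more per library, a member at 0 counts could still hold up to 3 counts per library, which limits Cidea and Pnpla3.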
